A study of Mus musculus with 22 samples.

Results

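The first 2 h after doxycycline were examined in NIH/3T3 mouse fibroblasts that carried a stably integrated construct for doxycycline-inducible E2F1 (the E2F1 line). Its members are all genes of the 4 libraries of that line at 0 h and at 2 h, out of 22 libraries in the series, each with values for 11208 genes. Both groups had been starved in 0.25% serum for 48 h. The 0 h group (2 libraries) was collected at the end of starvation, and the 2 h group (2 libraries) after 2 h with 500 ng/ml doxycycline. A line with the empty vector (EV), starved and treated the same way (2 libraries at 0 h and 2 at 2 h), served as the control for drug and handling. For some genes the levels in the EV line 2 h after 10% serum, and in the E2F1 line at 6 and 12 h, are set beside these. The labels name 1 line for each construct. They do not say whether it was a clone or a pool, nor whether replicates were separate cultures, so p-values measure only the spread between these libraries, which may be technical.

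E2F1 is a transcription factor that switches on genes for the entry into DNA replication, among them the E cyclins, the origin licensing proteins and the enzymes that make nucleotides. In resting cells the pocket proteins (Rb1 and its relatives) hold E2F factors at these promoters in a repressed state, and cyclin-dependent kinases release them once growth signals have acted. Immediate early genes such as Fos, Egr1 and Jun answer serum within minutes through the ERK kinases and the serum response factor Srf, and normally come before the E2F genes when a fibroblast leaves rest.

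The values are the authors' normalized counts, rounded to whole numbers. Their totals ran from 34014608 to 35600629 in the 8 doxycycline libraries of 0 h and 2 h. Changes are given as log2(value + 1) at 2 h minus 0 h, on which scale the change of low genes is understated, with the standard error (SE) and a Benjamini-Hochberg adjusted p from limma over all genes. A gene is said to have risen or fallen where that p was at most 0.05. The median change of all genes was 0.02 in the E2F1 line. Of 10 fibroblast markers (collagens, Vim, Fn1 and others) all 10 were in the table, and their summed level lay between 1100237 and 1412915 in the 8 libraries. The markers of epithelial, endothelial, leukocyte, muscle and fat cells were not among the genes of the table, whose lowest mean over all libraries was 99.6, so their level is not known.

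Some libraries stood apart from their labels in genes that distinguish the lines. A rule that did not use the 2 h libraries picked 30 genes at least 2-fold higher in every E2F1 library of 0, 6 and 12 h than in every EV doxycycline library of those times, with means at least 4-fold apart. In the EV line at 2 h, 25 of the 30 were higher in both libraries than in all 6 other EV doxycycline libraries, and the median gene lay 0.51 of the way from its E2F1 0 h level to its EV level on the log2 scale. In the E2F1 line at 2 h, 16 of the 30 were lower in both libraries than at 0 h and 5 were higher. The median gene there lay 0.07 of the way toward the EV level. The rule chose genes low in those 6 EV libraries and high in the E2F1 libraries. Libraries outside the rule can therefore lie between the lines through that choice alone. Its part in these counts was not tested, and the share over all genes was not counted. The Y-linked helicase gene Ddx3y had values of 580 and 521 in the E2F1 line at 0 h and 329 and 316 at 2 h. In the EV line it had 9 and 4 at 0 h, 103 and 71 at 2 h, and 132 and 170 after 2 h of serum. For this gene the EV 2 h libraries therefore stood between the lines, well above EV 0 h. Whether cells of one line were present in libraries of the other was not tested. Comparisons with the EV line at 2 h rest on these libraries.

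**Figure D1:**
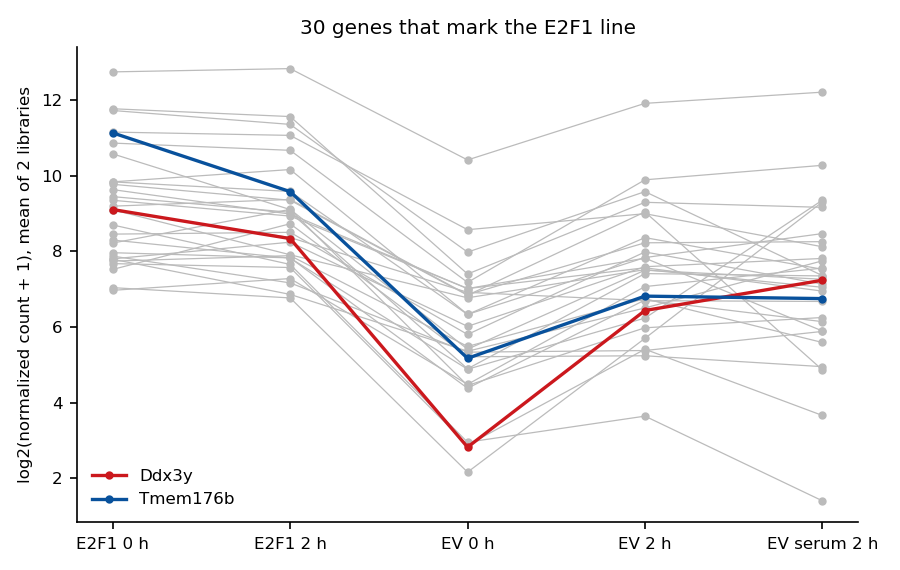
Genes that mark the E2F1 line, as log2(normalized count + 1), mean of 2 libraries, on the vertical axis, by group on the horizontal axis; each line is 1 of 30 genes, with Ddx3y and Tmem176b in colour. Most genes were lowest in EV 0 h and higher in EV 2 h, and Ddx3y fell from 580 and 521 to 329 and 316 between the E2F1 groups.

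Promoters of 5 genes that carry the changes described below are printed first, from the RefSeq table of build GRCm38.p6, each with 250 bases before the start site and 50 after it, 5′ to 3′ on the gene's strand. Ccne1 (chr7:38107441-38107740, minus strand) and E2f7 (chr10:110745189-110745488, plus strand) are 2 E2F-linked genes that rose. Casp8ap2 (chr4:32615220-32615519, plus strand) also rose, and its protein acts on histone genes. Srf (chr17:46556113-46556412, minus strand) and Egr2 (chr10:67537316-67537615, plus strand) are 2 serum response genes that fell. Capitals mark an E2F motif in E2f7 and Casp8ap2 and a CArG box, the element bound by Srf, in Srf and Egr2, and the Ccne1 window has none. The E2F motif was searched as TTTCCCGC, TTTCGCGC, TTTGCCGC or TTTGGCGC and in the shorter forms GGCGGGAA or GGCGCGAA, on both strands. For Egr2, which has 5 windows in the table, the window shown was chosen because it held a match. The 5 genes do not stand for all rises and falls. Among those with a window, an E2F motif was present in 12.3% of the rises and a CArG box in 4.94% of the falls.
Ccne1: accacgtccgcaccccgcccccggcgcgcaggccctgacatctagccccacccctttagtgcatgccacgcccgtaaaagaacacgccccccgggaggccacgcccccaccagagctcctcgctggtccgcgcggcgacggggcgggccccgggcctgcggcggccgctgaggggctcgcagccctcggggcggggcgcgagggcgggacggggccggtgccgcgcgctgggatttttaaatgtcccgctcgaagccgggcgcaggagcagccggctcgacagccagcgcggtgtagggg
E2f7: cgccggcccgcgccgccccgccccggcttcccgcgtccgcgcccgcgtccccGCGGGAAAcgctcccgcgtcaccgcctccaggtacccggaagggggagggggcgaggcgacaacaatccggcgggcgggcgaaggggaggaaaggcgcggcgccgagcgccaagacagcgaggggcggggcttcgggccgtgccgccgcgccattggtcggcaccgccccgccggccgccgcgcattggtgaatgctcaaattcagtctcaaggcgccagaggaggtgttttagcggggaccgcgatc
Casp8ap2: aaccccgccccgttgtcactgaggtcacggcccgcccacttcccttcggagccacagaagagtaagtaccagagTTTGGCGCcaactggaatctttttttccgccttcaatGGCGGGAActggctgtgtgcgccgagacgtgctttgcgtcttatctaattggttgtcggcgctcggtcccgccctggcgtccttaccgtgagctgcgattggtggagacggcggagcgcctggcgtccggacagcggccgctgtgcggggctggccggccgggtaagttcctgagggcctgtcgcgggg
Srf: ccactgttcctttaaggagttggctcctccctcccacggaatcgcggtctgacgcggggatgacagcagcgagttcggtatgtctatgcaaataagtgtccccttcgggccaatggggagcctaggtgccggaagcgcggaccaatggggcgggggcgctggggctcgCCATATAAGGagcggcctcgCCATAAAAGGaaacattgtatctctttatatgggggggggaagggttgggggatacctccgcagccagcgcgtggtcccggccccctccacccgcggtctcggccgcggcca
Egr2: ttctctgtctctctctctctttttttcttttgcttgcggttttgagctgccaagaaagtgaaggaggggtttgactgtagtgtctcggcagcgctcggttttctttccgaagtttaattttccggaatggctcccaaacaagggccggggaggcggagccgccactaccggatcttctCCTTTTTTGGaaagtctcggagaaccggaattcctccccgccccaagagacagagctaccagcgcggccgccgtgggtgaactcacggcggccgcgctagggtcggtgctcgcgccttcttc
None of these E2F letters was present in the Ccne1 window. E2f7 held 1 match, on the opposite strand, whose first base lay at -198 from the start site, and Casp8ap2 held matches at -176 and -139. The 2 CArG boxes of Srf began at -82 and -62, and that of Egr2 at -72.

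After 2 h the E2F1 line had raised a small set of genes, among them both E cyclin genes, the E2F repressor E2f7 and the replication nuclease Dna2, and had lowered a set of similar size that held 9 of 27 immediate early genes. The largest rise that passed was that of Hr (5.57-fold) and the largest fall that of Trp63 (to 0.222 of the 0 h level). Both genes also passed in the EV line, in the same direction. Ccne1 rose 2.51-fold and Ccne2 2.67-fold, and Egr1 fell to 0.407 of the 0 h level. In all, 97 of 11208 genes rose (0.865%) and 111 fell (0.990%), and 14 of the rises and 28 of the falls were at least 2-fold. Each of the 208 had both 2 h libraries beyond both 0 h libraries. The 208 were called on these same libraries, so this separation is no added support for them. The share of all genes that did so was not counted. The median change of the rises was 0.53 and that of the falls was -0.71. Single libraries carried much of this count. Without 0 h replicate 2 there were 8 rises and 18 falls, without 2 h replicate 1 there were 12 and 19, without 2 h replicate 2 there were 13 and 20, and without 0 h replicate 1 there were 47 and 73. Of 40 genes that the naming rule took and that passed, 5 passed in every other setting tried, leaving out each library included. These were the adhesion receptor gene Adgrg1, the kinase inhibitor gene Cdkn1a, Mex3b, Dusp6 and Ier5. At least Adgrg1, Cdkn1a and Dusp6 among them also passed in the EV line, in the same direction.

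The induced factor itself could not be followed at the RNA level at 2 h. E2f1 (ENSMUSG00000027490.17) had 1703 and 1637 in the E2F1 line at 0 h and 1535 and 1755 at 2 h, a change of -0.02 (SE 0.11, adjusted p = 0.946 by limma), with the 2 h libraries on either side of those at 0 h. EV libraries had 1635 and 1655 at 0 h and 1409 and 1307 at 2 h. The later E2F1 groups had 3806 and 3602 at 6 h and 2683 and 2845 at 12 h. Reads from a construct of another sequence than the mouse gene would not be counted here, and the labels do not give that sequence, so E2f1 checks the label only in part. Among its relatives, only the repressor E2f7 passed. E2f7 (ENSMUSG00000020185.16, chromosome 10) had 873 and 700 at 0 h and 1394 and 1743 at 2 h, a change of 0.99 (SE 0.21, adjusted p = 0.0219 by limma). For the EV line the values were 464 and 664 at 0 h and 732 and 609 at 2 h, so all 4 EV libraries lay below both E2F1 2 h libraries. The EV 0 h libraries already lay below both E2F1 0 h libraries, so this order does not by itself show a larger change in the E2F1 line. For E2f7 the difference between the changes of the lines did not pass.

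The E cyclins bind CDK2 and drive the G1/S step. Ccne1 (ENSMUSG00000002068.16, chromosome 7, 38097984 to 38107534) had 666 and 544 at 0 h and 1366 and 1673 at 2 h. Both 2 h libraries were more than double either 0 h library, a change of 1.33 (SE 0.22, adjusted p = 0.00368 by limma). Ccne2 (ENSMUSG00000028212.16, chromosome 4, 11191351 to 11204779) had 546 and 361 at 0 h and 1150 and 1227 at 2 h, a change of 1.42 (SE 0.25, adjusted p = 0.0063 by limma). For both cyclins the 2 h libraries lay above the 6 other libraries of 0 h and 2 h. For Ccne1 every EV library of 0 h and 2 h also lay below both E2F1 0 h libraries. That part of the order was therefore already present at 0 h. With 1 E2F1 library left out, the change ran from 1.18 to 1.47 for Ccne1 and from 1.12 to 1.72 for Ccne2. Ccne1, Ccne2 and E2f7 were not among the 5 genes that passed in every setting. The EV line had 281 and 445, then 454 and 543, for Ccne1, and 211 and 323, then 415 and 255, for Ccne2. Its changes of 0.49 and 0.32 did not pass (adjusted p = 0.187 and 0.493 by limma). The difference between the changes of the lines did not pass either (0.84 with adjusted p = 0.45 for Ccne1, 1.10 with adjusted p = 0.318 for Ccne2). Ccne2 overlaps Ints8 in the annotation, and the authors' use of strand is not stated.

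Cdkn1a, which encodes the CDK inhibitor p21, rose beside the cyclins. It had 3066 and 2954 at 0 h and 4621 and 5344 at 2 h, a change of 0.72 (SE 0.10, adjusted p = 0.00122 by limma). It also rose in the EV line, from 2128 and 2064 to 3054 and 2887 (change 0.50, adjusted p = 0.00715). Of 16 measured cyclin, kinase and inhibitor genes of the G1/S step, these 3 rose and none fell, against 0.865% and 0.990% of all genes. In the EV line 1 of the 16 rose and none fell, against 4.93% and 2.43% of all genes. There the median change was 0.07, and 9 of 16 changes were above 0. In the E2F1 line the median was 0.31, and 15 of 16 changes were above 0, against 5942 of all 11208 genes. The exception was the D cyclin gene Ccnd1, with 2064 and 2124 at 0 h and 1739 and 1577 at 2 h (change -0.34, adjusted p = 0.564).

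Of the genes of DNA replication itself, Dna2 passed. Dna2 (chromosome 10), a nuclease and helicase that trims replication intermediates, had 224 and 193 at 0 h and 511 and 489 at 2 h, a change of 1.26 (SE 0.32, adjusted p = 0.0498 by limma). It was 1 of 23 measured fork genes, none of the others passed, and it lay at the threshold, with an adjusted p of up to 0.0637 in the other settings with all 4 libraries. All 20 licensing and firing factors, which load and start the replicative helicase, had changes above 0, from 0.04 to 0.51, and none passed. Cdc6, which loads the Mcm helicase on origins, had 609 and 538 at 0 h and 664 and 880 at 2 h (change 0.42, adjusted p = 0.383). The helicase subunit gene Mcm3 had 3274 and 2985 at 0 h and 3401 and 3769 at 2 h (change 0.20, adjusted p = 0.648). Pcna, the sliding clamp, had 3794 and 3458 at 0 h and 4625 and 4883 at 2 h (change 0.39, adjusted p = 0.259). None of these 3 changes passed.

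No gene of nucleotide supply passed. Rrm2, the regulated subunit of ribonucleotide reductase, had 1617 and 1341 at 0 h and 1796 and 2438 at 2 h (change 0.51, adjusted p = 0.345), 1 of 7 measured genes. None of 14 repair and chromatin genes passed, and none of 18 G2/M genes. The mitotic kinase gene Cdk1 had 2866 and 2348 at 0 h and 2897 and 3284 at 2 h (change 0.25, adjusted p = 0.729). The 6 lists of E2F, G1/S, licensing, fork, nucleotide and repair genes together held 92 measured genes. In the E2F1 line 5 of the 92 rose and none fell, against 0.865% and 0.990% of all genes. In the EV line 4 of the 92 rose and none fell, against 4.93% and 2.43% of all genes. Of the 92, 81 had a change above 0 in the E2F1 line and 59 in the EV line, against 5942 of all 11208 genes in the E2F1 line, and the median was 0.21 in the E2F1 line and 0.07 in the EV line. The count of 5 was 1 without 0 h replicate 2 or without 2 h replicate 2, and 2 without 2 h replicate 1. With only the 4 libraries of the contrast in the fit it was 14. None of 13 measured apoptosis genes linked to E2F1 passed.

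**Figure D2:**
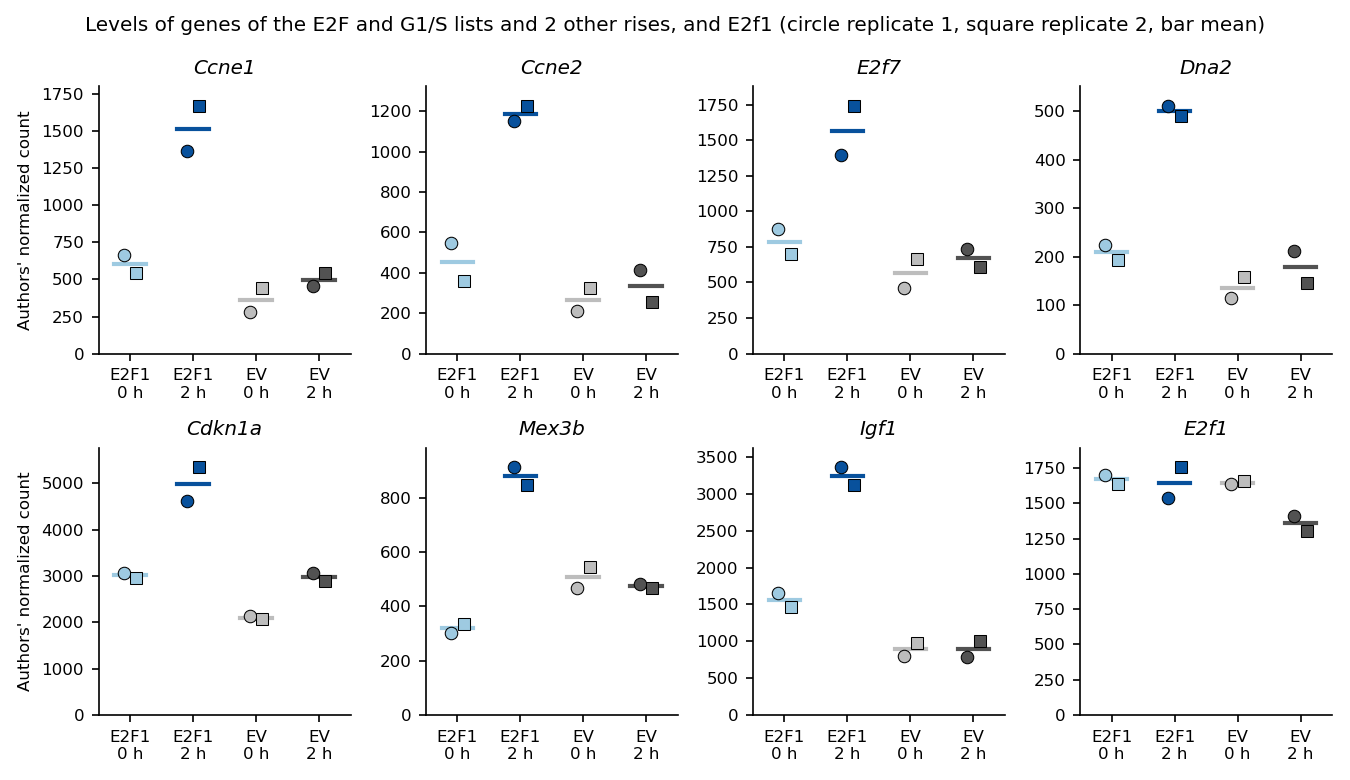
Authors' normalized counts on the vertical axis for 8 genes in the E2F1 and EV lines at 0 h and 2 h of doxycycline, with each library as a point and the mean as a bar. For Ccne1, Ccne2, E2f7, Dna2, Cdkn1a, Mex3b and Igf1 both E2F1 2 h libraries lie above the 6 others, and E2f1 does not separate.

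Slbp, Npat, Casp8ap2 and Cbx2 are 4 of the rises outside these lists, picked after their values were seen and not as a tested group. Slbp, whose protein binds the histone mRNA stem-loop, had 2029 and 1962 at 0 h and 2843 and 3055 at 2 h (change 0.56, adjusted p = 0.0258 by limma). Npat, the cyclin E/CDK2 substrate that activates histone genes, had 1347 and 1271 at 0 h and 1813 and 1811 at 2 h (change 0.47, adjusted p = 0.0433). Casp8ap2, which also acts on histone genes, had 1211 and 1078 at 0 h and 1550 and 1597 at 2 h (change 0.46, adjusted p = 0.0231), and it rose in the EV line as well (change 0.35, adjusted p = 0.0413). The Polycomb subunit gene Cbx2 had 928 and 812 at 0 h and 1603 and 1713 at 2 h (change 0.93, adjusted p = 0.00118). Slbp, Npat and Cbx2 did not pass in the EV line, with changes of 0.13, -0.12 and 0.09. All 4 genes had both E2F1 2 h libraries above the 6 other libraries.

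The RNA-binding protein gene Mex3b (chromosome 7, 82867333 to 82871515) was 1 of 3 rises whose change differed from that of the control line. It had 304 and 334 at 0 h and 913 and 846 at 2 h, a change of 1.46 (SE 0.21, adjusted p = 0.00118 by limma). EV cells had 469 and 546, then 483 and 468 (change -0.09). The difference between the changes was 1.55 (SE 0.29, adjusted p = 0.0483 by limma). Igf1, a secreted growth factor, had 1648 and 1465 at 0 h and 3359 and 3114 at 2 h, a change of 1.06 (SE 0.19, adjusted p = 0.00593 by limma). With 1 E2F1 library left out, the change of Igf1 ran from 0.97 to 1.14. Igf1 was not among the 5 genes that passed in every setting. EV libraries had 807 and 970 for Igf1 at 0 h and 780 and 997 at 2 h, and the difference between the changes of 1.06 did not pass (adjusted p = 0.128). Both genes started from levels on which the lines differed at 0 h, Mex3b lower in the E2F1 line and Igf1 higher.

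The largest rise that passed was that of Hr, which encodes a corepressor of nuclear receptors. Hr had 23 and 35 at 0 h and 219 and 121 at 2 h, a change of 2.48 (SE 0.43, adjusted p = 0.0055 by limma), and rose in the EV line too, from 54 and 73 to 158 and 212 (change 1.53, adjusted p = 0.0381). Adgrg1, an adhesion G protein-coupled receptor gene, had 181 and 278 at 0 h and 751 and 698 at 2 h (change 1.69, adjusted p = 0.000677). It rose more in the EV line, from 101 and 181 to 961 and 1069 (change 2.90, adjusted p = 7.84e-07). The kinase gene Pim1 had 236 and 204 at 0 h and 672 and 609 at 2 h (change 1.54, adjusted p = 0.00241), beside a change of 1.33 in the EV line (adjusted p = 0.00309). These 3 rises were thus also seen with doxycycline in the line without the E2F1 construct. The guidance factor gene Sema3c had 694 and 371 at 0 h and 1982 and 1533 at 2 h (change 1.78, adjusted p = 0.00822). Ptchd4, a p53 target gene, had 54 and 22 at 0 h and 120 in both libraries at 2 h (change 1.77, adjusted p = 0.0139), or 1.14 without 0 h replicate 2 (adjusted p = 0.273). Cpeb2, which encodes a regulator of mRNA translation, had 133 and 95 at 0 h and 258 and 410 at 2 h (change 1.52, adjusted p = 0.0121). For Sema3c, Ptchd4 and Cpeb2 the EV changes of 0.65, 0.88 and 0.81 did not pass.

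The noncoding gene Gm26917 rose. It had 7135 and 8621 at 0 h and 29900 and 19795 at 2 h (change 1.63, adjusted p = 0.0104 by limma), and it lies beside the ribosomal RNA gene CT010467.1 on chromosome 17. That gene had 13330 and 83906 at 0 h and 272670 and 137110 at 2 h, which was 0.0392% and 0.245%, then 0.8% and 0.4% of the library totals (change 2.53, adjusted p = 0.263). Rn7sk, the 7SK small nuclear RNA, had 26 and 33 at 0 h and 1145 and 1020 at 2 h (change 5.16, SE 1.34, adjusted p = 0.0571). Over all 22 libraries Rn7sk ran from 20 to 3606 and CT010467.1 from 12524 to 448933. CT010467.1 and Rn7sk did not pass, though both E2F1 2 h libraries lay above both 0 h libraries, and they varied widely between replicates of other groups (44 and 628 for Rn7sk in EV 0 h). Their part in the other results was not tested.

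The falls included genes of the immediate early list. Of 27 immediate early genes, all measured, 9 fell in the E2F1 line and none rose, against 0.990% of all genes for falls, and the median change was -0.51. The changes were not uniform, with 22 below 0 and 5 above 0. The highest was that of Nr4a3, at 1.83, which went the other way and did not pass. In the EV line 16 were below 0 and 11 above 0. Those that fell were Egr1, Egr2, Egr3, Jun, Ier2, Ier5, Myc, Btg2 and Srf. Egr1 had 4508 and 6762 at 0 h and 2279 and 2216 at 2 h, a change of -1.30 (SE 0.23, adjusted p = 0.00593 by limma). Egr2 had 233 and 601 at 0 h and 94 and 93 at 2 h (change -1.99, adjusted p = 0.0101). The change of Egr2 was -1.31 without 0 h replicate 2 (adjusted p = 0.24) and -2.67 without 0 h replicate 1 (adjusted p = 0.0041). Egr3 had 1059 and 1787 at 0 h and 522 and 462 at 2 h (change -1.48, adjusted p = 0.0377). In all 3 members of this zinc finger family replicate 2 at 0 h stood above replicate 1, and both 2 h libraries lay below both. The AP-1 subunit gene Jun had 5173 and 6163 at 0 h and 2860 and 3232 at 2 h (change -0.89, adjusted p = 0.00966). Fos, its partner, had 128 and 70 at 0 h and 61 and 44 at 2 h (change -0.86, adjusted p = 0.391), a difference that did not pass.

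Ier2 had 1520 and 2006 at 0 h and 874 and 901 at 2 h (change -0.98, adjusted p = 0.00447 by limma). Ier5, of the same family, had 5810 and 6073 at 0 h and 3311 and 3474 at 2 h (change -0.81, SE 0.10, adjusted p = 0.000677), and its 0 h libraries were close. Myc, which drives cell growth, had 2399 and 2434 at 0 h and 1348 and 1700 at 2 h (change -0.67, adjusted p = 0.0275). The antiproliferative gene Btg2 had 847 and 1113 at 0 h and 447 and 569 at 2 h (change -0.94, adjusted p = 0.0275). Srf had 3003 and 4546 at 0 h and 2036 and 2308 at 2 h (change -0.77, adjusted p = 0.0499), and its adjusted p ran up to 0.108 in the settings with all 4 libraries. Without 0 h replicate 2 the change of Srf was -0.47 (adjusted p = 0.55).

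All 9 of these genes were higher in 0 h replicate 2 than in replicate 1 of the E2F1 line, as were 83 of the 111 falls and 46.8% of all genes. The summed level of the 27 genes was 54543 and 60974 at 0 h and 38312 and 41339 at 2 h in the E2F1 line, and 54858 and 60805, then 44890 and 47224, in the EV line. The groups did not overlap in either line. The count of 9 was 9 without 0 h replicate 1, and 1 without 0 h replicate 2, without 2 h replicate 1 or without 2 h replicate 2. In the EV line 6 of the 27 fell (2.43% of all genes fell there), with a median change of -0.35, and no gene of the list differed in its change between the lines. In EV cells 2 h after serum 22 of the 27 rose and 3 fell, against 37.5% and 33.5% of all genes, with a median change of 1.93.

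**Figure D3:**
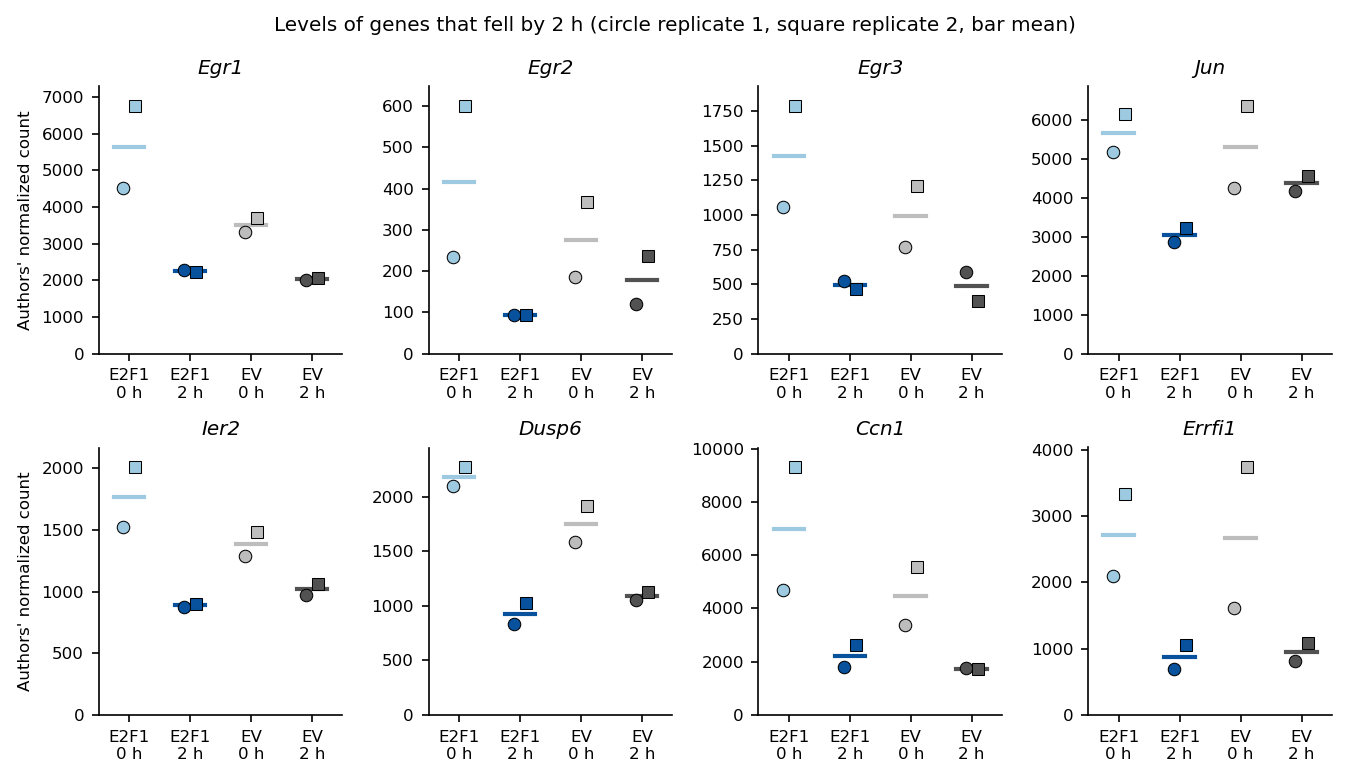
Authors' normalized counts on the vertical axis for 8 genes that fell in the E2F1 line, in both lines at 0 h and 2 h of doxycycline, with each library as a point and the mean as a bar. Egr2 runs from 233 and 601 to 94 and 93 in the E2F1 line, and most of the 8 are also lower at 2 h in the EV line.

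Of 13 measured genes of ERK output and feedback, 3 fell, none rose and 10 did not pass, where 0.990% of all genes fell, with a median change of -0.45 (-0.41 in the EV line). Dusp6, the phosphatase that inactivates ERK, had 2096 and 2271 at 0 h and 837 and 1024 at 2 h, a change of -1.24 (SE 0.18, adjusted p = 0.00133 by limma). Spry2 had 1647 and 1808 at 0 h and 1018 and 988 at 2 h (change -0.78, adjusted p = 0.0361). Spred1 had 3697 and 3549 at 0 h and 2589 and 2824 at 2 h (change -0.42, adjusted p = 0.0191). The same 3 genes fell in the EV line, by 0.67, 0.68 and 0.41 on the log2 scale (adjusted p = 0.0281, 0.0319 and 0.00864). The count of 3 was 1 when any 1 of the 4 E2F1 libraries was left out. Errfi1, an inhibitor of the EGF receptor, had 2097 and 3339 at 0 h and 688 and 1063 at 2 h (change -1.63, adjusted p = 0.0246), and it fell by 1.38 on that scale in the EV line (adjusted p = 0.0257).

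Of 9 measured targets of YAP and of the Srf cofactor MRTF, 1 fell, 2 rose and 6 did not pass. Of all genes 0.990% fell and 0.865% rose. In the EV line 1 of the 9 fell and 3 rose, against 2.43% and 4.93% of all genes. In the E2F1 line the list had a median change of -0.01. The matricellular gene Ccn1 had 4698 and 9301 at 0 h and 1789 and 2641 at 2 h, a change of -1.60 (SE 0.32, adjusted p = 0.0124 by limma). Acta2 (smooth muscle actin) had 11752 and 13298 at 0 h and 18756 and 19542 at 2 h (change 0.61, adjusted p = 0.0246). Vcl (vinculin) had 9130 and 9185 at 0 h and 13355 and 13062 at 2 h (change 0.53, adjusted p = 0.0101). All 3 changed the same way in the EV line, with changes of -1.32 for Ccn1, 1.24 for Acta2 and 0.68 for Vcl (adjusted p = 0.017, 5.92e-05 and 0.000791). The myosin light chain gene Myl9 rose in the EV line as well (change 1.98), beside 0.30 in the E2F1 line (adjusted p = 0.619).

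Among 14 measured p53 target genes, Cdkn1a, Sesn2 and Ptchd4 rose and Btg2 fell, against 0.865% and 0.990% of all genes. In the EV line 3 of the 14 rose and 1 fell, against 4.93% and 2.43% of all genes. The list had a median change of 0.21 in the E2F1 line. Sesn2, a stress-induced inhibitor of mTORC1, had 1260 and 1378 at 0 h and 1797 and 1795 at 2 h (change 0.45, adjusted p = 0.0272 by limma) and also stands on the list of ATF4 response genes, where it was the 1 rise among 15. In the EV line 5 of those 15 rose, with a median change of 0.48 against 0.16 in the E2F1 line. No gene passed on the lists of FOXO and quiescence (13 measured), clock (14), sterol synthesis (12) or interferon-stimulated genes (5 of 12 measured).

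**Figure D4:**
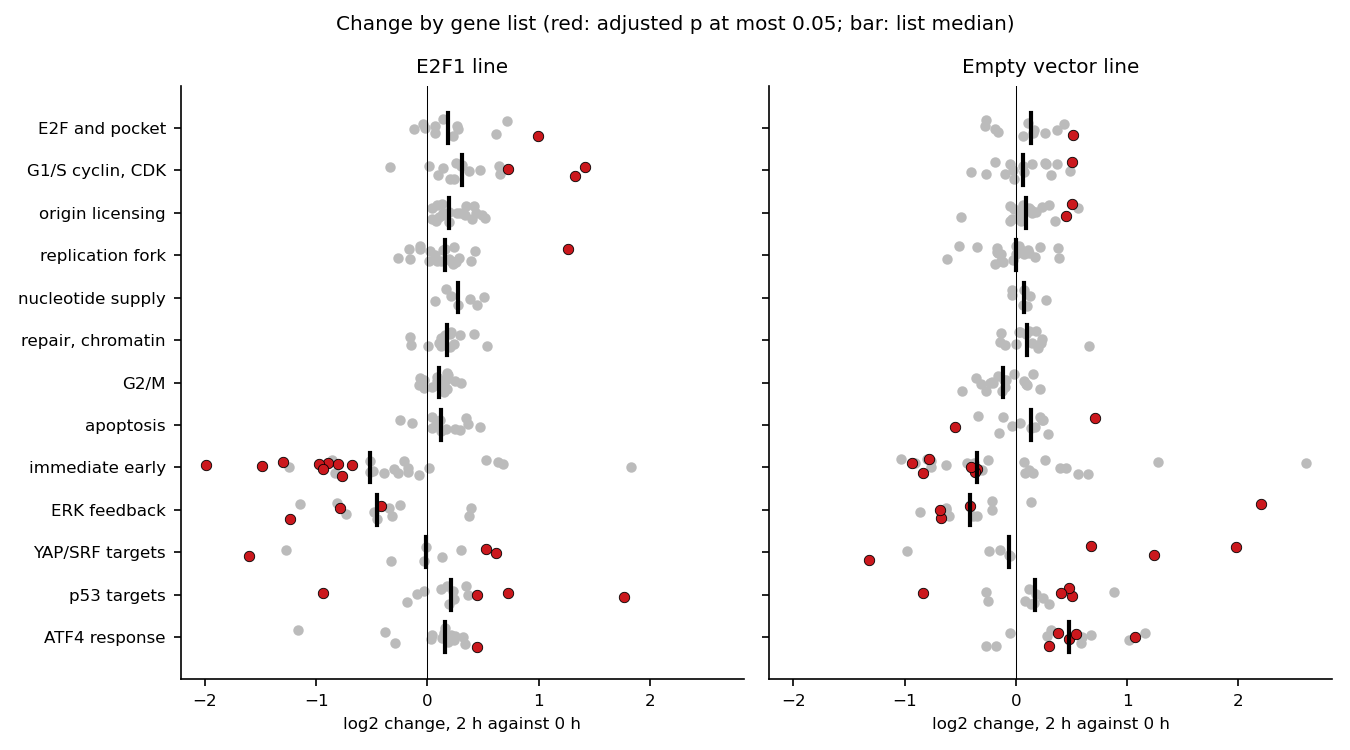
Change of each measured gene, log2 at 2 h minus 0 h on the horizontal axis, by gene list on the vertical axis, in the E2F1 line (left) and the EV line (right); points that passed are red and the bar is the list median. Licensing genes all lie above 0 without passing in the E2F1 line, and 15 of 20 lie above 0 in the EV line. The immediate early medians are -0.51 and -0.35.

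The other large falls were of mixed function. Trp63, a p53 family transcription factor gene, had the largest fall that passed, from 345 and 394 to 74 and 89 (change -2.17, SE 0.33, adjusted p = 0.00215 by limma), and it fell by 1.67 on the log2 scale in the EV line (adjusted p = 0.00553). Slc14a1, a urea transporter gene, went from 1073 and 1368 to 390 and 333 (change -1.75, adjusted p = 0.00277), beside -1.50 in the EV line. Socs2, a suppressor of cytokine signalling, went from 304 and 684 to 137 and 134 (change -1.74, adjusted p = 0.0191), or -1.16 without 0 h replicate 2 (adjusted p = 0.324). Chil1, a secreted chitinase-like protein gene, went from 300 and 229 to 80 and 81 (change -1.69, adjusted p = 0.0206). Fcor, a FOXO1 corepressor gene, went from 354 and 346 to 115 and 133 (change -1.49, adjusted p = 0.0028), beside -1.18 in the EV line. Of these 5, Trp63, Slc14a1 and Fcor thus fell in both lines, and Socs2 and Chil1 had EV changes of -0.87 and -1.05 that did not pass. Tcim went from 207 and 116 to 40 and 56 (change -1.69, adjusted p = 0.0341), with an EV change of 0.05. Fam135b went from 1557 and 1804 to 712 and 520 (change -1.46, adjusted p = 0.0169), with an EV change of -0.98 that did not pass.

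Set against the EV line, many of these changes were shared. Of the 97 rises, 35 (36.1%) also rose in the EV line and none fell there, where 4.93% of all genes rose and 2.43% fell. The 35 were 6.34% of the 552 EV rises. Of the 111 falls, 51 (45.9%) also fell in the EV line, which was 18.8% of the 272 EV falls, and 2 rose. The rises had a median EV change of 0.35, with 81 of 97 above 0, and the falls had a median of -0.44, with 100 of 111 below 0. The 2 comparisons share no library, but both used the same spread for each gene, from the fit to all 22 libraries. A gene with a small spread could therefore pass more easily in both lines, so the calls are not independent. How much of the overlap came from this shared spread was not tested. The 2 h libraries of the E2F1 line lay above the 6 other libraries of 0 h and 2 h for 62 of the 97 rises (11.8% of all genes did) and below them for 59 of the 111 falls (9.15% of all genes). In EV cells 2 h after serum, 66.0% of the rises were up and 18.6% down (64 and 18 genes), where 37.5% of all genes were up and 33.5% down. Of the falls 36.9% were up, close to the share of all genes, and 48.6% down (41 and 54 genes).

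**Figure D5:**
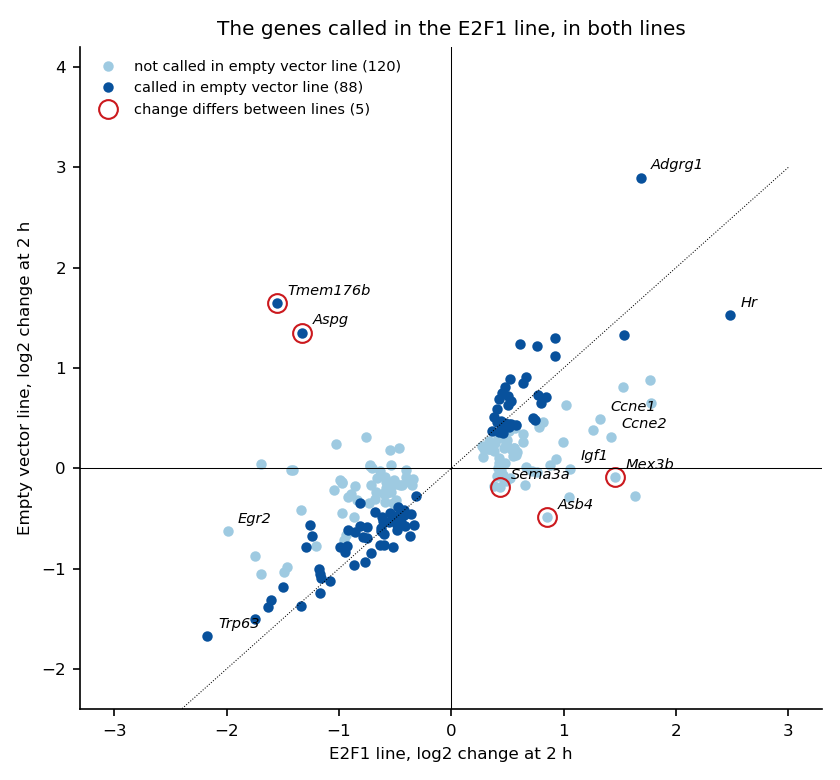
The 208 genes that passed in the E2F1 line, with their log2 change in that line on the horizontal axis and in the EV line on the vertical axis; the dotted line marks equal change. Of these, 88 also passed in the EV line, and circles mark the 5 whose change differed between the lines.

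The change itself differed between the lines for 16 of 11208 genes (0.143%), and 872 had an unadjusted p under 0.05. Of the 16, 5 had passed in the E2F1 line. They were Mex3b, Asb4 and Sema3a among the rises and Tmem176b and Aspg among the falls. Tmem176b, a membrane protein gene and one of the 30 that mark the line, had 2070 and 2432 at 0 h and 849 and 687 at 2 h in the E2F1 line (change -1.55, adjusted p = 0.0402 by limma). In the EV line it went from 25 and 49 to 93 and 134 (change 1.64, adjusted p = 0.0129), so the lines moved toward each other. The lines differed at 0 h on all 16 genes, among 1684 genes (15.0%) on which they did, and in all 16 the difference in change was opposite in sign to the difference at 0 h. The 0 h libraries enter both measures. With genes on which the lines differed at 0 h left out, 64 rises and 74 falls were counted in the E2F1 line and no gene differed in its change. The count of 16 was between 2 and 6 without 0 h replicate 2 or either 2 h library of the E2F1 line, and without 0 h replicate 2 or either 2 h library of the EV line. Effects that passed in the E2F1 line and not in the EV line are therefore not shown to differ between them, apart from those of Mex3b, Asb4 and Sema3a. For these the difference passed, under the limits just given. Whether it came from E2F1 was not tested.

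Promoter windows were found for 65 of the 97 rises, 81 of the 111 falls and 8609 genes of the table. An E2F motif in either form was present in 12.3% of the rises (8 genes), 4.94% of the falls (4 genes) and 9.56% of all genes. Of the 73 genes with a window on the 6 E2F and replication lists, 34 (46.6%) held one. The cyclic AMP response element TGACGTCA was present in 3.08% of the rises, 4.94% of the falls and 3.81% of all genes, and the CArG box in 1.54%, 4.94% and 1.51%. The motifs can overlap, and a match is a description of the letters. In the annotation the rises had a median gene length of 29278 bp, the falls 20289 bp and all genes 22980 bp.

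The authors' deposited table for this comparison lists 10 genes, 4 higher and 6 lower, each with an absolute log2 fold change of at least 2.02. In the authors' deposited table the rises were Rn7sk (5.19), Gm10800 (2.63), Hr (2.50) and Skint7 (2.24). The falls in the authors' deposited table were Scg2 (-5.66), Hmcn1 (-5.15), Trp63 (-2.19), Samd5 (-2.12), Tnfsf10 (-2.06) and Egr2 (-2.02). Of the 10, 5 are in the table of normalized counts. Hr, Trp63 and Egr2 passed in the limma fit, and Rn7sk and Skint7 did not (adjusted p = 0.0571 and 0.578). Skint7 had 74 and 32 at 0 h, 183 and 306 at 2 h, and 35 and 14, then 182 and 406, in the EV line.

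At later times, in comparisons that share the 0 h libraries, several 2 h rises stood far above their 2 h level. Ccne1 had 10461 and 9521 at 6 h, and Ccne2 had 9083 and 8538. E2f7 had 10316 and 8937, Dna2 had 5898 and 5978, Slbp had 12492 and 12426 and Mex3b had 2055 and 2212. Other rises were back near or below their 0 h level at 6 h, with 991 and 992 for Igf1 and 21 and 48 for Hr. Among the falls, Egr1 had 10500 and 8304 at 6 h and 4140 and 3419 at 12 h, and Dusp6 had 2046 and 1460 at 6 h, while Slc14a1 was still at 352 and 432.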

How the data were processed

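RNA was measured in 22 libraries of 11 groups, 2 each, with groups and replicate numbers from the labels. Poly(A)-selected RNA was read from both ends over 150 bp, per the labels' protocols. The submitters' processing notes name FastQC, Trimmomatic, HISAT2, featureCounts, DESeq2 and the mm10 build, without versions. The annotation, the strand setting and the scaling are not given in the sources used here. The main table holds counts that the authors had normalized and rounded, treated here as a score, since the deposited values are no longer raw counts; depth before scaling was not estimated. The authors' deposited tables give a log2 fold change per gene and, in the same deposited tables, an adjusted p-value.

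The fit, by limma 3.58.1 under R 4.3.3, took log2(value + 1). It gave each of the 11 groups a mean over the 22 libraries (11 residual degrees of freedom), with empirical Bayes moderation with a trend, and Benjamini-Hochberg adjustment over 11208 genes. No filter was applied. Data were simulated for E2F1 2 h against 0 h (11208 genes). The fit called 100 of 100 genes changed by 2 on the log2 scale and 87 of 100 changed by 1. It also called 11 unchanged genes. The noise was drawn independently from the spread that the same fit had estimated. The counts therefore do not measure how the fit performs on the real libraries. Changes smaller than 1, such as the median of the rises (0.53), were not simulated.

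Genes were named by a rule: up to 12 rises and 12 falls of largest change that passed, where the higher group averaged 50 or more and there was no overlap between the E2F1 groups, list members that passed, and a fixed set of cell cycle and immediate early genes. A result that the rule would have named is not reported here. The members and lists were chosen with earlier results of these data known. Genes named outside the rule, picked after their values were seen, were Slbp, Npat, Casp8ap2, Cbx2, Ddx3y, Rn7sk, CT010467.1, Myl9, Aspg, Sema3a, Nr4a3 and Asb4. Positions are from GENCODE M21 (GRCm38, which is mm10), in which 10977 of 11208 gene identifiers occurred. Tables and figures came from Python 3.11.15 (pandas 2.3.3, matplotlib 3.10.9). The alternatives were other pseudocounts, filters and scalings, a replicate block, fewer libraries and fewer genes.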

Additional observations from a re-analysis of the deposited data

Results flagged for a closer look

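For 5 genes that passed in the E2F1 line, the 2 h change differed between the E2F1 and EV lines by the interaction test (limma, adjusted over all genes, 2 libraries a group). The difference, E2F1 change minus EV change on the log2 scale, was 1.55 for Mex3b (adjusted p = 0.0483), 1.34 for Asb4 (adjusted p = 0.0201), 0.62 for Sema3a (adjusted p = 0.0204), -2.68 for Aspg (adjusted p = 0.0258) and -3.20 for Tmem176b (adjusted p = 0.0201). Asb4 had 2325 and 2150 at 0 h and 3809 and 4297 at 2 h in the E2F1 line, and 5117 and 6805, then 4100 and 4327, in the EV line. Sema3a had 3886 and 3813 at 0 h and 5472 and 4970 at 2 h in the E2F1 line, and 5673 and 5772, then 4988 and 5082, in the EV line. Aspg had 284 and 408 at 0 h and 171 and 107 at 2 h in the E2F1 line, and 133 and 87, then 278 and 275, in the EV line. For Asb4, Sema3a and Tmem176b the lines were closer at 2 h than at 0 h. For Mex3b the E2F1 line went from below the EV line to above it, and for Aspg from above to below.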

How the results depend on the processing

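Counts are of genes at an adjusted p of at most 0.05. Against 97 rises and 111 falls in the E2F1 line, quantile normalization gave 152 and 178, a fit to only the groups of the contrast 295 and 301, a change of at least 2-fold 14 and 28, and leaving out genes on which the lines differed at 0 h 64 and 74. For 552 rises and 272 falls in the EV line, only the groups of the contrast gave 243 and 157, at least 2-fold 71 and 30, leaving out those genes 248 and 151, and quantile normalization 424 falls. For 16 genes that differed in their change, a mean of at least 200 gave 7, quantile normalization 51, only the 0 h and 2 h doxycycline libraries 45 and leaving out those genes 0. The 1684 genes on which the lines differed at 0 h were 652 with only those 2 groups and 208 at 2-fold or more. The replicate number as a block gave 110 rises and 133 falls in the E2F1 line and raised the 16 to 33; the labels do not say what a number shares, and same-numbered E2F1 libraries of 0 h and 2 h did not deviate together (r = -0.22 across genes, and -0.01 in the EV line). Leaving out 1 library gave 8 to 47 rises and 18 to 73 falls in the E2F1 line, 88 to 325 and 69 to 180 in the EV line, 2 to 22 genes for the difference and 684 to 1236 between the lines; the lone library of a group is then assumed to vary like the other groups. Among named genes only E2f1 changed sign, from -0.02 to 0.0038 without 0 h replicate 1 and 0.0719 without 2 h replicate 1, within a range of -0.1213 to 0.0719 over the 4 libraries. The cause was not tested. Added after seeing the data, a fit without the EV 2 h libraries gave 82 and 93, and crossed pairing of the E2F1 libraries 83 and 103.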
